A study of Mus musculus with 9 samples.

Results

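Cadict was compared with Cu-Cys in MC38 cells, a mouse colon carcinoma line, to describe which transcripts differ when glucose oxidase (GOx) and the GE11 peptide are added to copper-cystine. The comparison used every library of the 2 groups, 6 of the 9 libraries of the study, and the 11949 of 16509 listed genes that passed a filter on low counts. Cu-Cys cells received the product of copper chloride and cystine. Cadict cells received copper-cystine carrying GOx and a lipid-anchored GE11 peptide, so copper and cystine were given to both groups. The other 3 libraries were Ctrl cells, for which the labels name DMSO and the study's methods PBS. Each group was 3 libraries of 1 cell line, and the study's methods call replicates biological in general terms. The labels tie no library to a culture of its own, so the p-values measure the spread between these libraries, which may be technical. Dose and time of treatment are not given in the sources used here for the sequenced cells, and GOx and GE11 were added together, so their parts cannot be told apart. The study reports that MC38 cells took up a labelled control without GE11 only marginally. How much copper entered the sequenced cells is not given for either group, so a difference in copper load cannot be told apart either.

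GOx is an enzyme that oxidises glucose with oxygen and releases gluconate and hydrogen peroxide. GE11 is a short peptide that binds the epidermal growth factor receptor (EGFR). Cystine is reduced to cysteine inside cells at the cost of NADPH, and copper ions bind thiols and lipoylated mitochondrial enzymes. Misfolded proteins release HSF1, which drives heat shock genes. Electrophiles and peroxide free NRF2, which drives antioxidant genes, while excess metal activates MTF1, which drives metallothioneins. A block of the translation factor eIF2 favours ATF4 and its targets, a programme called the integrated stress response.

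The 6 libraries held between 17905771 and 18139276 counts, and a count of 0 allowed at most 0.138 CPM (counts scaled to a common library size) with Cu-Cys and 0.261 CPM with Cadict. Their composition differed. The 100 most abundant genes took 18% ± 0.136 (SD, n = 3) of the counts with Cu-Cys and 30.4% ± 0.668 (SD, n = 3) with Cadict (exact permutation test, 2-sided, p = 0.1, the smallest that 3 against 3 can give). TMM factors, which scale libraries so that most genes do not differ, were 1.21 in each Cu-Cys library and 0.640 to 0.665 in the Cadict libraries. All values below are TMM-scaled CPM, and all fold changes are relative to that scaling. With library totals in their place the median log2 fold change of all genes moved from -0.10 to -0.98, a shift that applies to nearly the whole transcriptome. The library Cadict 2 stood apart: the chi-square per degree of freedom between its counts and those of the other Cadict libraries was 14.7 and 23.1, against 3.64 between those 2, and its counts came from shorter transcripts (count-weighted median effective length 2009 bases, against 2178 and 2184 in the other Cadict libraries and 2556 to 2562 with Cu-Cys). Among markers of other cell types, Epcam, which marks epithelial cells, was at 0 counts in 5 of the 6 libraries, and leukocyte, endothelial and colon epithelial markers other than the lysosomal Cd68 lay at or under 1.27 CPM in every library of both groups. Cd68 held 2.63, 2.15 and 2.28 CPM with Cu-Cys and 15.4, 17.7 and 18.0 CPM with Cadict, which took the sum of the leukocyte markers from between 2.42 and 2.95 to between 16.1 and 19.0 CPM. The 5 fibroblast markers, among them Pdgfrb, Pdgfra and Col1a1, summed to 86.9 to 92.3 CPM with Cu-Cys and 54.3 to 63.5 CPM with Cadict.

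With Cadict 5041 genes were called, 42.2% of those tested, at a fold change of at least 2 and a Benjamini-Hochberg adjusted p of at most 0.001 in edgeR's quasi-likelihood test. Of these, 2225 (18.6%) were higher and 2816 (23.6%) were lower than with Cu-Cys. Large rises outnumbered large falls at the extreme: 87 genes were at least 32-fold higher and 29 at least 32-fold lower, whereas at a limit of 4-fold the numbers were 636 and 1057. The 3 libraries of one group lay wholly above the 3 of the other for 10160 genes, 85% of those tested, so absence of overlap is the rule in this comparison and says little of a single gene. The direction of the calls depended on the scaling: with library totals 688 genes were called higher and 5705 lower, with the deposited FPKM 472 and 4499, and with TPM 359 and 5785. Under all 5 scalings tried, 340 genes were called higher and 2304 lower.

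**Figure D1:**
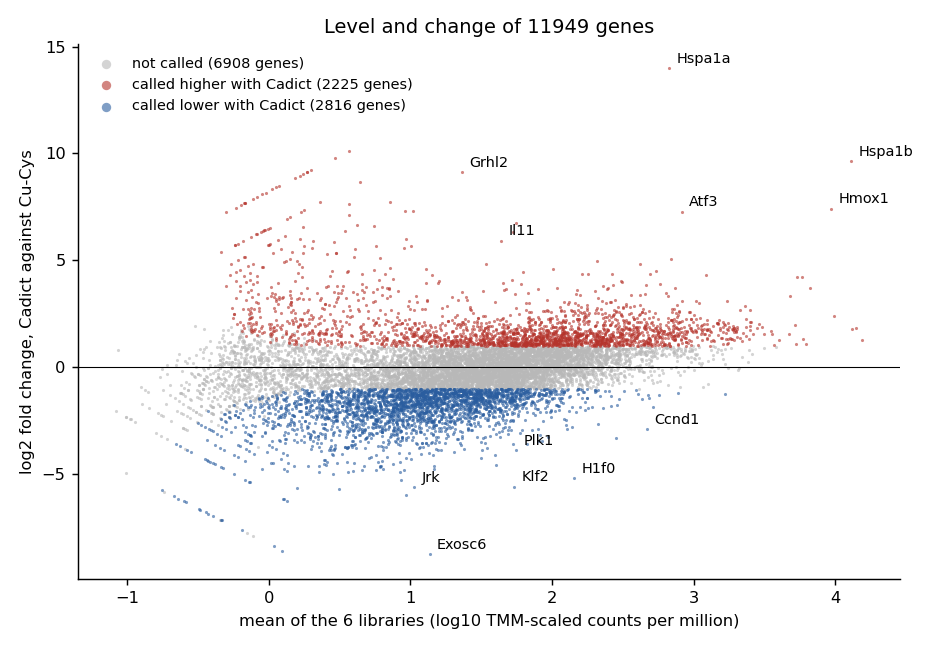
Mean level over the 6 libraries (x axis, log10 TMM-scaled CPM) against the log2 fold change of Cadict over Cu-Cys (y axis) for 11949 genes, with called genes in colour. The abundant end of the plot, where Hspa1b and Hmox1 lie, holds mostly rises, and the 2816 falls lie mostly at low and middle levels.

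Genes to be named were picked by rule and from lists, mostly for large changes in this same comparison. Of the 157 picked, 143 were called, each with groups that did not overlap and an adjusted p of at most 5.64e-05 in edgeR's quasi-likelihood test (the highest, for Cd274). The choice largely set that outcome in advance, so it is no result about these genes. Fold changes are given on the log2 scale with the standard error of the fit, and library values in the order of replicates 1 to 3. Among 29 lists of related genes, the medians ran from 2.90 for the heat shock response to -1.27 for mitosis, around the median of -0.10 for all genes tested. The lists with the highest shares of called members were heat shock, cytoplasmic ribosomal proteins and immediate early genes. Of the 17 lists with a median above 0, 8 turned below 0 with library totals, and the order of the lists then stood around a median of -0.98.

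**Figure D2:**
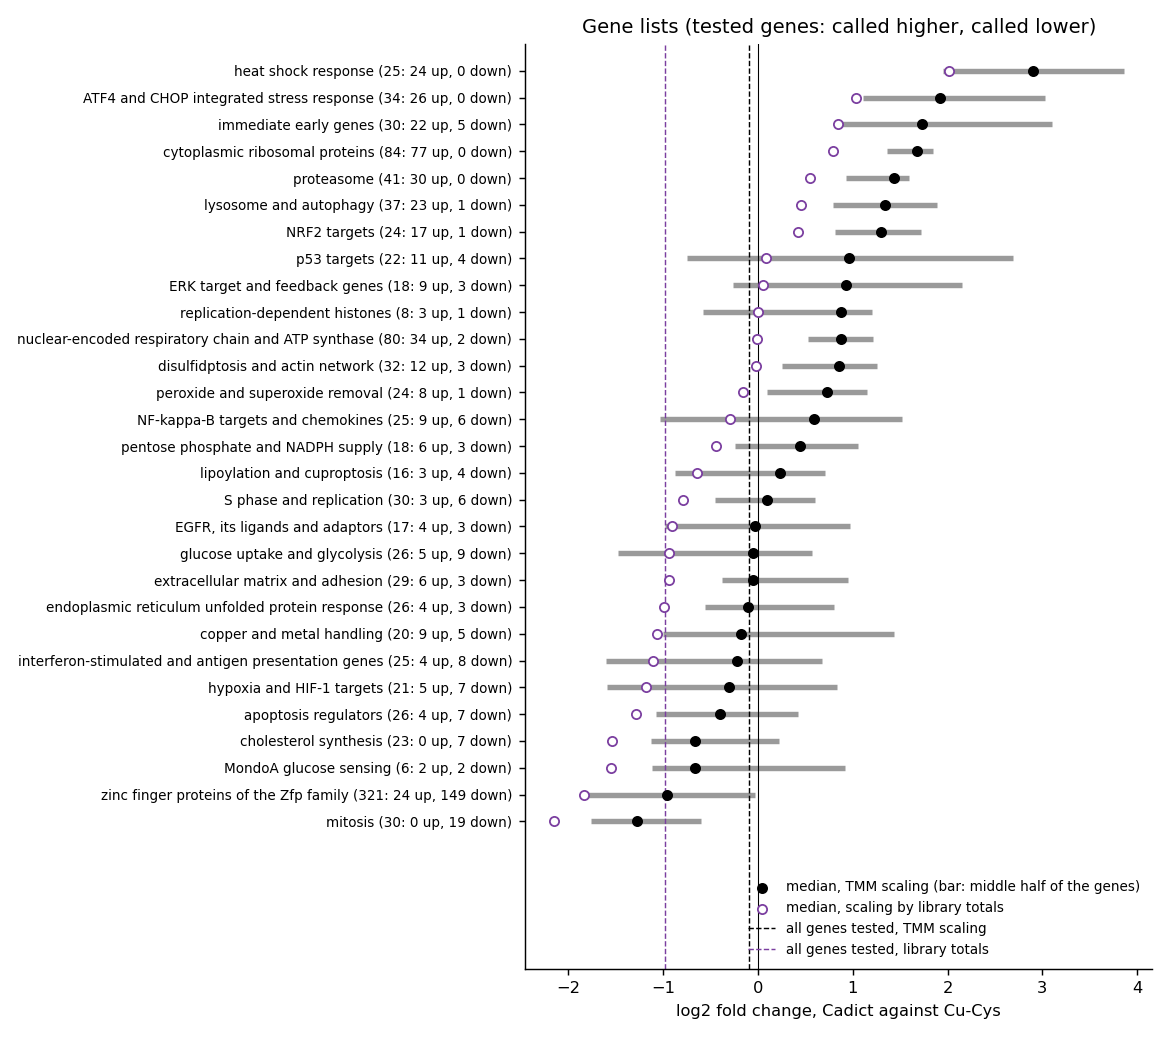
Median log2 fold change of Cadict over Cu-Cys (x axis) for the tested genes of 29 lists (y axis, with the number tested, called higher and called lower). Black dots are medians with TMM scaling, bars run from the lower to the upper quartile, open circles are medians with library totals, and dashed lines are the medians of all genes; heat shock lies farthest right and mitosis farthest left under both scalings.

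The heat shock response was the list that moved most. Of its 25 tested members, 24 rose, 0 fell and Hsf1, the regulator itself, was not called (0.35 ± 0.05), beside 18.6% called higher among all genes. Together the list took 2.88% ± 0.0306 of the counts with Cu-Cys and 9.73% ± 0.386 with Cadict (SD, n = 3). With library totals 19 of the 25 were still called higher and 0 lower.

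Hspa1a and Hspa1b encode the inducible HSP70 chaperone, and because their sequences are nearly identical the split of reads between them is uncertain. Hspa1b lay at 28.1, 30.5 and 38.8 CPM with Cu-Cys and at 27644, 22421 and 27317 CPM with Cadict, a log2 fold change of 9.64 ± 0.14. Summed over both genes the libraries held 28.0, 30.7 and 38.8 CPM with Cu-Cys, against 29088, 23578 and 28715 CPM with Cadict, which is 1.51% to 1.91% of all counts in those libraries. Every Cadict library was far above every Cu-Cys library, while Ctrl libraries held 18.7 to 20.9 CPM. Hspa1a alone had counts of 0, 5 and 0 with Cu-Cys. Its ratio of summed counts, scaled by the TMM-scaled library sizes of the groups, was 17606 (95% exact counting interval 7544 to 54225). Other such ratios here are scaled in the same way, and all such intervals cover counting error only.

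Other chaperones rose from levels that were already high. Hsph1, the HSP110 exchange factor of HSP70, lay at 619.6, 591 and 582 CPM with Cu-Cys and 11147, 10671 and 11220 CPM with Cadict (4.20 ± 0.05). Dnajb1, an HSP40 that hands clients to HSP70, went from 116, 118 and 121 to 2296, 2444 and 2274 CPM (4.31 ± 0.06). Neither gene showed any overlap between the groups. The constitutive Hspa8 (1.79 ± 0.05), the cytosolic HSP90 genes Hsp90aa1 (2.41 ± 0.05) and Hsp90ab1 (1.83 ± 0.04), and the small chaperone Hspb1 also rose, the last from counts of 2, 4 and 2 with Cu-Cys to 20.5, 18 and 23.4 CPM. Ubb, a polyubiquitin gene that supplies ubiquitin under proteotoxic stress, rose from 812, 852 and 890.1 to 9018, 8845 and 8215 CPM (3.35 ± 0.06).

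The promoters of 2 of these genes are shown because heat shock elements are the sites that HSF1 binds. They run from 250 bases before to 50 bases after the RefSeq start on GRCm38.p6, written along the gene's strand, and capitals mark the 8-base forms GAANNTTC or TTCNNGAA on either strand. Hspa1a lies on the minus strand at chr17:34972107-34972406 and Hsph1 on the minus strand at chr5:149636287-149636586.
Hspa1a: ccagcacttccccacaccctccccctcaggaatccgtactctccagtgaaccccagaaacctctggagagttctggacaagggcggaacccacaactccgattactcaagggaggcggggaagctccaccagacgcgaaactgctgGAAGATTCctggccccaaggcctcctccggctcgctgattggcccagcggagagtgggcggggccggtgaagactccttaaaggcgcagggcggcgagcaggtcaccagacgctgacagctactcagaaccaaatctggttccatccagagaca
Hsph1: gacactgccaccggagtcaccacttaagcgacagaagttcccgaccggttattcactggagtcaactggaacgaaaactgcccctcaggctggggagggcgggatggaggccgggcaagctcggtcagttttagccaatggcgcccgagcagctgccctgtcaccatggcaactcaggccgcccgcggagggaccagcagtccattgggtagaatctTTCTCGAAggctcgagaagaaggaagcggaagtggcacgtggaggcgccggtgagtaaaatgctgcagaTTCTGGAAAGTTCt
Hspa1a held 1 such match and Hsph1 held 3 in these windows, of which 2 overlap. Over the 9550 tested genes with a promoter in the table, GAANNTTC was in 6.80% and TTCNNGAA in 8.04%. Among the 206 matched genes called at least 8-fold higher the shares were 11.2% and 12.6%, and among the 242 called at least 8-fold lower 2.89% and 6.20%.

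Proteasome subunits rose as a block of smaller size. Of 41 tested, 30 rose and 0 fell (73.2% and 0%, beside 18.6% and 23.6% of all genes), with a median of 1.44. Psmd8 (2.12 ± 0.07), Psmc2 (2.09 ± 0.06), Psmb2 (1.99 ± 0.06) and Psmd12 (1.96 ± 0.05), which cover the regulatory cap and the catalytic core, had the largest changes. Psmd8 held 251, 249 and 243 CPM with Cu-Cys and 1075, 1188 and 978 CPM with Cadict, with no overlap. With library totals 5 subunits were called higher and 0 lower.

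Lysosome and autophagy genes followed the same direction, with 23 of 37 called higher and 1 lower (62.2% and 2.7%, beside 18.6% and 23.6% of all genes, median 1.34). Sqstm1 encodes p62, the receptor that links ubiquitinated cargo to autophagosomes, and it is also a target of NRF2. It lay at 548, 536 and 558 CPM with Cu-Cys and 10356, 10391 and 10007 CPM with Cadict (4.23 ± 0.05), and the libraries of each group were close together. The autophagosome proteins Gabarapl1 (3.05 ± 0.06) and Map1lc3b (2.62 ± 0.06) and the lysosomal galactosidase Gla (2.83 ± 0.06) also rose. With library totals 11 of the 37 were called higher and 5 lower.

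Among 24 tested NRF2 targets, 17 rose and 1 fell (70.8% and 4.17%, beside 18.6% and 23.6% of all genes, median 1.3). Their share of counts was 0.665% ± 0.0148 with Cu-Cys and 2.92% ± 0.0507 with Cadict (SD, n = 3). Hmox1, the heme oxygenase that degrades heme to biliverdin, iron and carbon monoxide, took 0.0131% of the counts with Cu-Cys and 1.22% with Cadict. It lay at 96.5, 109 and 121 CPM with Cu-Cys and at 18986, 19281 and 17676 CPM with Cadict (7.42 ± 0.09). Against Ctrl cells, at 24.4, 23.2 and 22 CPM, Hmox1 was already higher with Cu-Cys by 2.23 ± 0.08. Txnrd1, the cytosolic thioredoxin reductase, rose from 362, 354 and 359 to 3236, 2843 and 3261 CPM (3.12 ± 0.06). Blvrb, a biliverdin reductase, rose by 2.64 ± 0.07. Members of the same list that were not called included G6pdx at 0.11 ± 0.05 and, named after its values were seen, the quinone reductase Nqo1 at 0.16 ± 0.06. With library totals 6 of the 24 were called higher and 2 lower.

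GOx makes peroxide, and the enzymes that remove peroxide and superoxide moved less. Of 24 tested, 8 rose and 1 fell (33.3% and 4.17%, beside 18.6% and 23.6% of all genes). The median of 0.73 became -0.16 with library totals, where 1 was called higher and 5 lower. Catalase (Cat), which splits hydrogen peroxide, held 61.2, 61.5 and 56.7 CPM with Cu-Cys and 49.1, 45 and 47.5 CPM with Cadict and was not called (-0.34 ± 0.06, adjusted p = 6.11e-05). Its 2 groups did not overlap, and the Cadict libraries were the lower ones. Prdx6 (1.88 ± 0.06), the mitochondrial thioredoxin Txn2 (1.64 ± 0.07) and the copper-zinc superoxide dismutase Sod1 (1.57 ± 0.10) rose. For Sod1 the library Cadict 2 was the highest, with 259, 360.1 and 259 CPM across the 3 Cadict libraries.

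**Figure D3:**
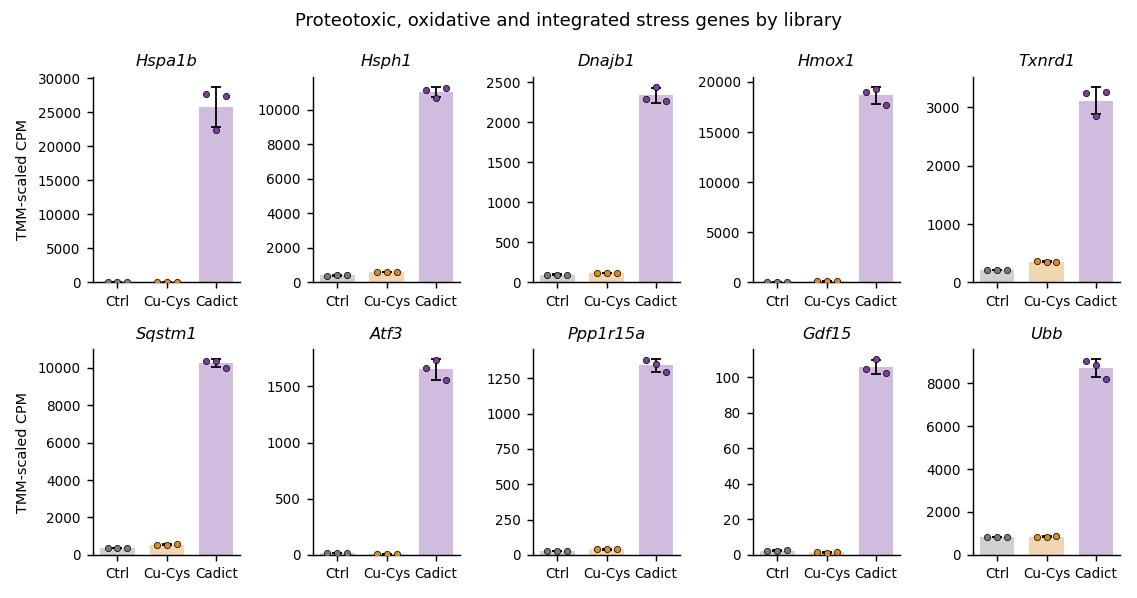
TMM-scaled CPM (y axis, linear) of 10 stress genes in the 3 groups (x axis); bars are means, error bars SD over 3 libraries and points single libraries. In each panel all Cadict libraries lie above all Cu-Cys and Ctrl libraries, as for Hmox1 at 18986, 19281 and 17676 CPM.

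Targets of ATF4 and CHOP rose as a group: 26 of 34 tested (76.5%, beside 18.6% of all genes), with 0 lower and a median of 1.92. Atf4 itself, which is controlled mainly at translation, lay at 427, 408 and 426 CPM with Cu-Cys and 568, 646 and 570.4 CPM with Cadict and did not reach the fold limit (0.50 ± 0.06), with a change that turned negative with library totals (-0.38). Ddit3, which encodes CHOP, rose from 15.4, 13.4 and 13 to 62.9, 78.8 and 61.7 CPM (2.28 ± 0.10). Atf3, a stress-induced repressor of the same family, went from 10.2, 10.6 and 11.2 to 1664, 1734 and 1554 CPM (7.27 ± 0.10). None of these 3 genes had overlapping groups.

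Ppp1r15a encodes GADD34, the subunit that directs a phosphatase to eIF2 and ends the response. It lay at 44.3, 38.1 and 39.5 CPM with Cu-Cys and 1381, 1348 and 1294 CPM with Cadict (5.04 ± 0.07). The secreted stress cytokine Gdf15 rose from 1.52, 1.14 and 1.32 to 105, 110.1 and 102 CPM (6.31 ± 0.10). The serine enzymes Phgdh (2.09 ± 0.06), Psat1 (2.05 ± 0.05) and Psph (3.12 ± 0.08) and the asparagine synthetase Asns (1.86 ± 0.05), named after their values were seen, rose as well. With library totals 17 of the 34 were called higher and 0 lower.

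The Ppp1r15a promoter is shown because it carries a cAMP response element, the palindrome bound by ATF and CREB proteins. It lies on the minus strand at chr7:45526219-45526518 (RefSeq, GRCm38.p6), and capitals mark the match to TGACGTCA, which reads the same on both strands.
Ppp1r15a: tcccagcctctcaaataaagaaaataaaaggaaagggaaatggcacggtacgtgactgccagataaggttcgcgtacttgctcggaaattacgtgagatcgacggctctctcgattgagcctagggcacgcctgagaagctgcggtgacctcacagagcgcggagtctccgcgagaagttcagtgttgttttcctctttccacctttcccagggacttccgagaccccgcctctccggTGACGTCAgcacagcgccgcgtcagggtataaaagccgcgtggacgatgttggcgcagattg
That palindrome was in 3.59% of all matched promoters, 5.49% of those called higher and 2.98% of those called lower. Among genes at least 8-fold higher, as Ppp1r15a was, the share was 3.40%, near that of all promoters. The C/EBP-ATF element TGATGCAAT was rare, in 0.136% of promoters: 8 genes called higher held it and 0 called lower.

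The unfolded protein response of the endoplasmic reticulum did not move as a block. Of 26 tested genes, 4 rose and 3 fell (15.4% and 11.5%, beside 18.6% and 23.6% of all genes). The median of -0.11 was close to that of all genes, and with library totals 2 were called higher and 13 lower. Hspa5, the luminal chaperone BiP, lay at 1092, 1053 and 1030 CPM with Cu-Cys and 1901, 2009 and 1872 CPM with Cadict and stayed under the fold limit (0.86 ± 0.05). Its groups did not overlap, but the change was -0.02 with library totals. Dnajb9 (2.78 ± 0.07), a BiP partner, and the sensor Atf6 (1.98 ± 0.06) rose, while the disulfide isomerase Pdia4 (-1.60 ± 0.05) and Sdf2l1 (-1.95 ± 0.09) fell.

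Copper and metal genes moved in both directions. Of 20 tested, 9 rose and 5 fell (45% and 25%, beside 18.6% and 23.6% of all genes, median -0.18). Both groups received copper and cystine, but the copper that entered the sequenced cells is not given for either. The metallothioneins, which bind copper and zinc through cysteines, were among the rises. Mt1 lay at 236, 236 and 241 CPM with Cu-Cys and 1181, 1563 and 1212 CPM with Cadict (2.47 ± 0.09), and Mt2 at 175, 174 and 170.1 and 1309, 1742 and 1377 CPM (3.09 ± 0.09). In Ctrl cells they held 76.1, 80.3 and 72.1 and 68.8, 74.7 and 69.2 CPM, and Cu-Cys alone differed from Ctrl by 1.64 ± 0.09 and 1.29 ± 0.09. The 3 groups did not overlap for either gene. Slc30a1, which exports zinc from the cell, rose from 14.8, 15.7 and 13.1 to 114, 109.9 and 128 CPM (3.01 ± 0.08).

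Slc39a10, a zinc importer of the plasma membrane, went the other way. It held 48.4, 46 and 48.2 CPM in Ctrl cells, 117, 131 and 124 CPM with Cu-Cys and 10.3, 9.94 and 11.2 CPM with Cadict (-3.56 ± 0.07). The copper treatment alone was therefore above Ctrl (1.38 ± 0.06) and Cadict below both. The copper importer Slc31a1 (-0.13 ± 0.06) was not called, the exporter Atp7a (1.12 ± 0.12) rose and Atp7b (-1.18 ± 0.27) fell. Copper chaperones and cytochrome oxidase assembly factors went both ways. Cox11 (-3.01 ± 0.19), Sco1 (-1.19 ± 0.09) and Sco2 (-1.56 ± 0.22) fell, while Atox1 (1.33 ± 0.10), Ccs (1.04 ± 0.10) and Cox17 (1.77 ± 0.11) rose. These 9 were named after their values were seen. With library totals 4 of the 20 were called higher and 11 lower.

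The metallothionein promoters are shown because metal response elements are the sites that MTF1 binds. Capitals mark TGCACNC or TGCGCNC on either strand. Mt1 lies on the plus strand at chr8:94178839-94179138 and Mt2 on the plus strand at chr8:94172368-94172667 (RefSeq, GRCm38.p6).
Mt1: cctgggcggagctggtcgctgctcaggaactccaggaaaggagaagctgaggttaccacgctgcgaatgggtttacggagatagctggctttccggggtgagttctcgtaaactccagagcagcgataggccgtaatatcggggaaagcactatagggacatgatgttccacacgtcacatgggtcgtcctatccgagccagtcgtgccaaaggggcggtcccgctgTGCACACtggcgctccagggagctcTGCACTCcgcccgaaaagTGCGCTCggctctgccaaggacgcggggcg
Mt2: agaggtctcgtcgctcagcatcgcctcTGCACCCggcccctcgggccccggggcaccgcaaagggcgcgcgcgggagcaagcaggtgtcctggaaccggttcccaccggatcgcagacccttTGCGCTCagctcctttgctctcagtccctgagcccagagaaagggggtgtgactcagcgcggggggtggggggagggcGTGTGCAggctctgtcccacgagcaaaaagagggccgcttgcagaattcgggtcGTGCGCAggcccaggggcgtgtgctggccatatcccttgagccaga
The windows held 3 and 4 matches. Both forms are common, in 15.1% and 30.8% of all matched promoters, and their shares among genes called higher were 14.2% and 28.4%.

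Genes of lipoylation and cuproptosis, the death pathway in which copper acts on lipoylated enzymes, did not change together. Of 16 tested, 3 rose and 4 fell (median 0.24, and -0.65 with library totals), and these shares of 18.8% and 25% lie near the 18.6% and 23.6% of all genes. With library totals 0 were called higher and 5 lower. Fdx1, the ferredoxin that reduces copper in this pathway, lay at 11.4, 11.7 and 12.8 CPM with Cu-Cys and 18.6, 21.1 and 14.5 CPM with Cadict (0.59 ± 0.11) and was not called. Lias, the lipoic acid synthase, fell from 26.7, 25.9 and 26.7 to 11.3, 12.6 and 11.2 CPM (-1.18 ± 0.07). Of the lipoylated subunits, Dlst was called higher (1.29 ± 0.06). Dlat changed in the same direction and lay just under the limit (0.98 ± 0.05), which it passed with the size factors of DESeq2 (1.08). The lipoyltransferases Lipt1 (-3.75 ± 0.22) and Lipt2 (-3.56 ± 0.41), named after their values were seen, had the largest falls.

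The disulfidptosis and actin list holds the cystine transporter and the actin proteins that are cross-linked when NADPH runs out. In it 12 of 32 tested genes rose and 3 fell (37.5% and 9.38%, beside 18.6% and 23.6% of all genes, median 0.86). With library totals the median was -0.02 and the calls were 2 higher and 6 lower. Slc7a11, the light chain of the cystine importer, lay at 135, 147 and 136 CPM with Cu-Cys and 359, 307 and 386 CPM with Cadict (1.33 ± 0.07). Its partner Slc3a2 rose more, from 191, 178 and 183 to 1209, 1328 and 1165 CPM (2.74 ± 0.06). Both are also targets of ATF4. The actin cross-linker Flna was under the limit at 0.80 ± 0.05 and turned to -0.08 with library totals, Myl6, a myosin light chain, rose by 1.99 ± 0.10, and the actin nucleator Inf2 fell by 1.95 on the log2 scale.

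Of 26 tested genes of glucose uptake and glycolysis, 5 were called higher and 9 lower (median -0.05). These shares, 19.2% and 34.6%, stand beside 18.6% and 23.6% of all genes. The transporter Slc2a1, which encodes GLUT1, rose from 129.6, 127 and 126 to 329, 323 and 315 CPM (1.34 ± 0.05). Hk2, the hexokinase that traps glucose, held 82.4, 80.0 and 82 and 87.4, 89.9 and 104 CPM and was not called (0.20 ± 0.06, adjusted p = 0.00641). Pfkl, the liver-type phosphofructokinase, fell from 161, 147 and 159 to 15.5, 13.8 and 13.4 CPM (-3.45 ± 0.07). The Hk2 groups did not overlap but lay close, whereas those of Pfkl were far apart. Pdk1, the kinase that closes pyruvate dehydrogenase, fell by 2.92 on the log2 scale, and Slc16a3, a lactate exporter, fell by 1.58. With library totals 0 of the 26 were called higher and 13 lower.

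Txnip, an arrestin-like protein whose gene is driven by the glucose sensor MondoA, held 11, 8.83 and 10.2 CPM in Ctrl cells, 5.08, 5.21 and 4.88 CPM with Cu-Cys and 19.7, 14.4 and 18.8 CPM with Cadict. It was thus lower with Cu-Cys than in Ctrl (-0.99 ± 0.13) and higher with Cadict than with Cu-Cys (1.80 ± 0.13). The dimer partner Mlx rose (1.43 ± 0.06), and Mlxip, which encodes MondoA, was not called (-0.70 ± 0.11). Arrdc3 (-1.76 ± 0.11) and Arrdc1 (-1.26 ± 0.18), arrestins named after their values were seen, fell. So 2 of the 6 tested genes rose and 2 fell (33.3% each way, beside 18.6% and 23.6% of all genes). With library totals 0 were called higher and 4 lower, and Txnip (0.92) and Mlx (0.55) stayed above 0 but under the fold limit.

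In NADPH supply 6 of 18 tested genes rose and 3 fell (33.3% and 16.7%, beside 18.6% and 23.6% of all genes, median 0.45). With library totals the median was -0.44 and the calls were 1 higher and 6 lower. G6pdx, the first enzyme of the pentose phosphate pathway, lay at 116, 103 and 112 CPM with Cu-Cys and 119, 118 and 119 CPM with Cadict and was not called (0.11 ± 0.05, adjusted p = 0.0685). H6pd, its counterpart in the endoplasmic reticulum, fell from 61.7, 56.2 and 61.2 to 3.14, 3.40 and 2.94 CPM (-4.24 ± 0.09). The mitochondrial folate enzyme Aldh1l2 rose (2.16 ± 0.09), and the dehydrogenase Idh1 fell (-1.73 ± 0.07).

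GOx consumes oxygen. Of 21 tested targets of the hypoxia factor HIF-1, 5 rose and 7 fell (median -0.30). These shares, 23.8% and 33.3%, stand beside 18.6% and 23.6% of all genes. Bnip3, a mitophagy receptor, fell from 138, 159 and 149 to 14.7, 12.5 and 14 CPM (-3.44 ± 0.09), and the oxygen-sensing hydroxylase Egln3 fell by 2.48 on the log2 scale. Vegfa, the angiogenic growth factor, rose from 89.4, 87.7 and 89.5 to 253, 256 and 269 CPM (1.55 ± 0.05), and Ndrg1 by 2.48 ± 0.06. The libraries of both groups kept apart for each of these genes. Vegfa, Ndrg1 and Slc2a1 are driven by other stress factors as well. With library totals 1 of the 21 was called higher and 12 lower.

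**Figure D4:**
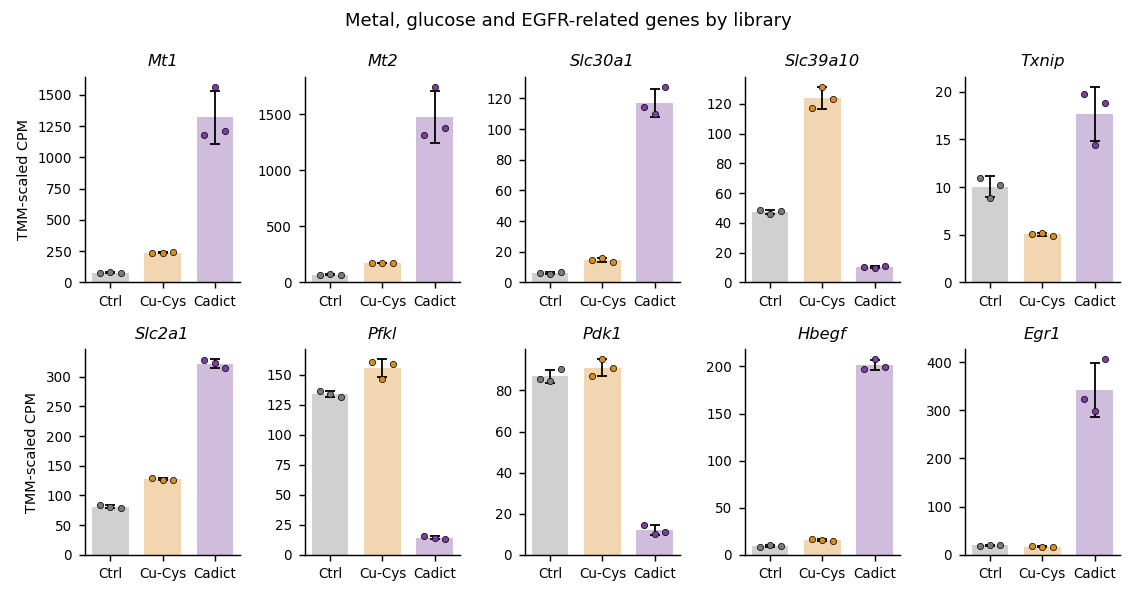
TMM-scaled CPM (y axis, linear) of 10 metal, glucose and EGFR-related genes in the 3 groups (x axis); bars are means, error bars SD over 3 libraries and points single libraries. Mt1, Mt2 and Slc30a1 step up from Ctrl to Cu-Cys to Cadict, Slc39a10 is highest with Cu-Cys at 117, 131 and 124 CPM, and Pfkl and Pdk1 are low only in the Cadict libraries.

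GE11 binds EGFR, and transcripts of Egfr were nearly undetected in these cells. Its counts were 0, 0 and 0 with Cu-Cys, 5, 5 and 2 with Cadict and 0, 2 and 2 in Ctrl libraries. These were too few to pass the filter, so no test was made. Transcript counts do not measure the receptor protein. The study reports that MC38 cells took up Cadict efficiently and a control without GE11 only marginally. Among 17 tested genes of EGFR, its ligands and adaptors, 4 rose and 3 fell (median -0.03). These shares, 23.5% and 17.6%, lie near the 18.6% and 23.6% of all genes, and with library totals the calls were 3 higher and 7 lower. The ligand Hbegf lay at 16.4, 15.7 and 14.3 CPM with Cu-Cys and 197, 208 and 199.8 CPM with Cadict (3.70 ± 0.07). The adaptor Shc1 rose (1.27 ± 0.05), while the receptor Erbb2 (-1.80 ± 0.07) and the docking protein Gab1 (-1.56 ± 0.09) fell.

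Genes downstream of ERK went both ways, with 9 of 18 called higher and 3 lower (50% and 16.7%, beside 18.6% and 23.6% of all genes, median 0.93). With library totals the median was 0.05 and the calls were 6 and 5. Phlda1 (4.34 ± 0.07) and Plaur (3.39 ± 0.06), the urokinase receptor, rose. Ccnd1, the cyclin that ERK signals induce in G1, fell from 807, 853 and 830.2 to 106, 109 and 121 CPM (-2.89 ± 0.06). Myc fell by 1.22 on the log2 scale. Immediate early genes respond within minutes to growth factors and stress. Of 30 tested, 22 rose and 5 fell (73.3% and 16.7%, beside 18.6% and 23.6% of all genes, median 1.73), and with library totals 13 and 5.

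Egr1 lay at 17.5, 16.4 and 16.6 CPM with Cu-Cys and 323, 298 and 406 CPM with Cadict (4.35 ± 0.10). Fosb, a partner of JUN in AP-1, rose from 2.54, 2.01 and 2.28 to 62.2, 65.4 and 69.9 CPM (4.85 ± 0.10). Klf2, a zinc finger factor of the same early class, was one of the 5 falls and went from 112, 98.5 and 109 to 2.21, 2.18 and 2.27 CPM (-5.58 ± 0.10). The AP-1 letters TGANTCA, counted on both strands, were in 6.28% of all matched promoters, 8.53% of those called higher, 4.72% of those called lower and 13.1% of those at least 8-fold higher. The TATA letters TATAAA showed a like order, with 8.32%, 11.9%, 6.54% and 17.0%, and the antioxidant response core TGACNNNGC had 17.0%, 19.9%, 15.2% and 24.3%. Each letter match is a description and not a site shown to be used.

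Of 25 tested interferon-stimulated and antigen presentation genes, 4 rose and 8 fell (median -0.22). These shares, 16% and 32%, stand beside 18.6% and 23.6% of all genes. For Cu-Cys against Ctrl the median of the list was already -0.76, with 0 called higher and 7 lower. B2m, the light chain of MHC class I, rose from 756, 770.4 and 753 to 2579, 3027 and 2799 CPM (1.88 ± 0.06), and the heavy chain H2-D1 by 1.75 ± 0.05. The regulator Irf1 fell (-3.20 ± 0.12). Cd274, which encodes PD-L1, was low, with 3.41, 2.56 and 2.1 CPM with Cu-Cys and 0.850, 0.784 and 1.09 CPM with Cadict, and fell (-1.56 ± 0.27). Eif5b, a translation initiation factor, held 220.0, 217 and 215 CPM and 167, 175 and 180.4 CPM and was not called (-0.32 ± 0.05), but with library totals it was called lower (-1.20), as with FPKM (-1.17) and TPM (-1.45). With library totals 0 of the 25 were called higher and 13 lower. B2m (1.00) and H2-D1 (0.86) stayed above 0 there, under the fold limit.

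Among 25 tested NF-kappa-B targets and chemokines, 9 rose and 6 fell (36% and 24%, beside 18.6% and 23.6% of all genes, median 0.59). With library totals the median was -0.30 and the calls were 5 higher and 10 lower. The monocyte chemokine Ccl2 fell from 153, 167 and 166 to 63.6, 76.9 and 63 CPM (-1.26 ± 0.07), and Ccl7 fell by 1.38 on the log2 scale. Both were also lower with Cu-Cys than in Ctrl, by -1.25 ± 0.07 and -1.06 ± 0.07. Cxcl16 (1.50 ± 0.09) and the inhibitor Nfkbib (2.23 ± 0.08) rose.

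Mitosis was the list with the lowest median (-1.27): 19 of 30 tested genes fell and 0 rose (63.3% and 0%, beside 23.6% and 18.6% of all genes), and with library totals 24 fell. Plk1, the kinase that drives mitotic entry and spindle assembly, lay at 106, 102 and 106 CPM with Cu-Cys and 9.09, 5.75 and 6.72 CPM with Cadict (-3.86 ± 0.10). The kinesins Kif2c (-3.11 ± 0.08) and Kif20a (-2.86 ± 0.08) and the cyclin Ccnb1 (-2.69 ± 0.07) fell, with no overlap between groups. In Ctrl cells Plk1 held 96.8, 97.6 and 94.3 CPM, close to Cu-Cys. Of 30 S phase genes 3 were called higher and 6 lower (10% and 20%, beside 18.6% and 23.6% of all genes), and with library totals 0 and 13. The G1/S cyclins Ccne1 (-2.78 ± 0.09) and Ccne2 (-3.87 ± 0.14) and the thymidine kinase Tk1 (-2.26 ± 0.06) fell.

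Of 22 tested p53 targets, 11 rose and 4 fell (50% and 18.2%, beside 18.6% and 23.6% of all genes, median 0.97). With library totals the median was 0.08 and the calls were 8 higher and 9 lower. The members with the largest rises were growth arrest genes that other stress pathways also induce. Gadd45a lay at 11.6, 14.2 and 12.7 CPM with Cu-Cys and 386, 436 and 387 CPM with Cadict (4.97 ± 0.08). Gadd45g (4.37 ± 0.10), Sesn2 (3.88 ± 0.10) and Plk3 (3.67 ± 0.09) rose too. Among 26 apoptosis regulators 4 rose and 7 fell (median -0.40). These shares, 15.4% and 26.9%, lie near the 18.6% and 23.6% of all genes, and with library totals the calls were 2 higher and 15 lower. Pmaip1, the BH3-only protein NOXA, rose (2.78 ± 0.05), and the survival genes Bcl2 (-1.63 ± 0.10) and Birc2 (-1.71 ± 0.10) fell. Cflar, an inhibitor of caspase-8, rose (2.16 ± 0.07).

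Cytoplasmic ribosomal protein genes rose nearly without exception, 77 of 84 tested (91.7%, beside 18.6% of all genes) with 0 lower and a median of 1.68. This result moved with the scaling and with library Cadict 2. With library totals 13 were called higher and 1 lower, and without Cadict 2 the numbers were 70 and 1. Fau held 144, 154 and 156 CPM with Cu-Cys and 669, 915 and 624 CPM with Cadict (2.28 ± 0.11), and Cadict 2 was its highest library. The list took 8.6%, 10.6% and 7.95% of the counts in the Cadict libraries and 5.34%, 5.58% and 5.51% in the Cu-Cys libraries. These transcripts are short, with a median effective length of 385 bases against 2553 for all genes. When each gene was set against the median of its length decile, the median of the list was 0.97 in place of 1.68.

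Nuclear-encoded respiratory chain genes, also short, had 34 of 80 called higher and 2 lower (42.5% and 2.5%, beside 18.6% and 23.6% of all genes, median 0.87). Without Cadict 2 the numbers were 23 and 3. With library totals 1 was higher and 6 were lower, and set against their length deciles the genes had a median of 0.32. Cox4i1 (1.82 ± 0.10), Cycs (1.61 ± 0.07) and Cox6a1 (1.61 ± 0.09) rose, and Ndufv1, the flavoprotein of complex I, fell (-1.90 ± 0.07). In cholesterol synthesis 7 of 23 genes fell and 0 rose (30.4% and 0%, beside 23.6% and 18.6% of all genes). The median was -0.66, and -0.29 against their length deciles, and the mevalonate kinase Mvk (-2.23 ± 0.12) was among the falls. With library totals 14 fell. Of 29 extracellular matrix and adhesion genes 6 rose and 3 fell (20.7% and 10.3%, beside 18.6% and 23.6% of all genes), and with library totals 1 and 13. Ccn2 rose (2.97 ± 0.07), and the fibrillar collagen Col3a1 fell from 141, 152 and 150.4 to 28.9, 24.8 and 24.9 CPM (-2.50 ± 0.07). Col3a1 held 388, 353 and 365 CPM in Ctrl cells and was lower with Cu-Cys by -1.32 ± 0.06. Only 8 of 60 replication-dependent histone genes passed the filter, of which 3 rose and 1 fell (37.5% and 12.5%, beside 18.6% and 23.6% of all genes), and with library totals 1 and 3. Most transcripts of these genes carry no poly(A) tail.

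Across the transcriptome, the shortest transcripts leaned up and genes with few exons leaned down. Effective length could be derived from the deposited counts and FPKM for 11072 genes. In the shortest decile, with a median of 567 bases, 38.3% were called higher and 7.85% lower (median log2 fold change 0.73), and in the eighth decile, with a median of 3997 bases, 11.1% and 30.4% (median -0.40). Across genes, which are not independent replicates, length and fold change had a Spearman rho of -0.21. For Cu-Cys against Ctrl the rho was nearly the same, at -0.20, with smaller medians of 0.15 in the shortest decile and -0.076 in the longest. The rank trend with length is therefore not particular to Cadict against Cu-Cys. Exon number, taken from GENCODE M21 by symbol for 11599 protein-coding genes, gave another pattern. Of 214 genes with 1 exon 14.0% were called higher and 45.3% lower, against 22.8% and 20.2% of the 3502 genes with 6 to 10 exons. A fall of at least 8-fold was called for 17.3% of genes with 1 exon, 11% of the 474 with 2 exons and 0.813% of the 1599 with more than 20. The classes with 1 and 2 exons had median lengths of 2091 and 1964 bases, near the 1958 bases of genes with 6 to 10 exons. Their median levels in Ctrl cells were lower, at 7.73 and 12.4 TPM against 26.3 TPM. By decile of Ctrl level, 10.7% of genes were called lower in the lowest, 37.8% in the second and 5.86% in the highest. The part of level in the exon pattern was not tested.

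**Figure D5:**
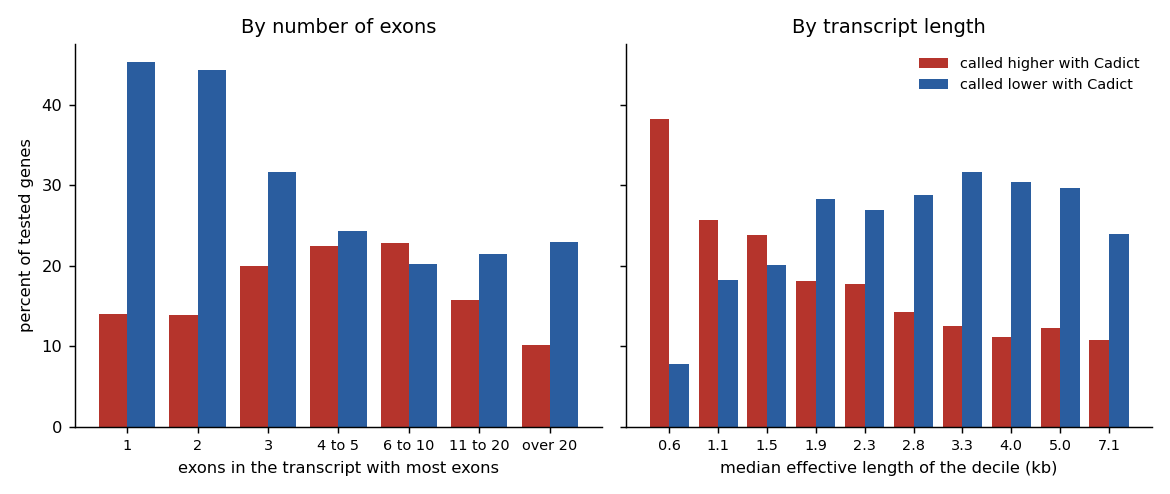
Percent of tested genes called higher or lower with Cadict (y axis) by number of exons (left, 11599 protein-coding genes) and by decile of effective transcript length (right, 11072 genes). The share called lower is 45.3% for genes with 1 exon and 20.2% for those with 6 to 10, and the share called higher is 38.3% in the shortest decile.

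Many of the deepest falls were of this kind. Of the 15 largest, 4 had 1 exon and 9 had at most 3, whereas 1.84% and 11.4% of all coding genes did. Exosc6, a subunit of the RNA exosome, lay at 26.7, 27.2 and 28 CPM with Cu-Cys and had counts of 0, 2 and 0 with Cadict. Its scaled ratio of summed counts was 480 (95% exact counting interval 133 to 3965). H1f0, the replication-independent linker histone, fell from 281, 284 and 273 to 6.80, 8.63 and 7.56 CPM (-5.19 ± 0.07). Haspin, the kinase that phosphorylates histone H3 at mitotic centromeres, fell from 27.2, 27.4 and 30.3 to 0.935, 0.784 and 1.43 CPM (-4.74 ± 0.15). All of these have 1 exon, and absence of overlap was a condition of their choice. Hspa1a and Hspa1b also have 1 exon and were the 2 largest rises among genes with a mean of at least 10 CPM.

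Jrk (-5.60 ± 0.19), the SMN complex member Gemin4 (-4.57 ± 0.08) and B4gat1 (-4.06 ± 0.13) have 2 exons, and Fem1a (-3.93 ± 0.10) has 1 exon. Wdr6 (-4.11 ± 0.10), Neurl1b (-4.62 ± 0.19), Fam217b (-4.27 ± 0.13) and Galnt15 (-4.11 ± 0.16), the last of which was also lower with Cu-Cys than in Ctrl (-1.16 ± 0.08), complete the list with H6pd, Klf2 and 2 zinc finger genes. Gemin4 held 75.5, 76.4 and 81.1 CPM with Cu-Cys and 3.31, 3.31 and 3.19 CPM with Cadict, and 79.1, 81.2 and 82.8 CPM in Ctrl cells. Zinc finger genes of the Zfp family made up the largest list: 149 of 321 tested fell and 24 rose (median -0.96). This is 46.4% and 7.48%, against 23.6% and 18.6% of all genes, and with library totals 232 fell and 6 rose. Set against their length deciles the genes had a median of -0.66, and they were not matched to other genes by level. Zfp386 fell from 24.6, 27.3 and 24.9 to 1.61, 1.39 and 1.68 CPM (-4.03 ± 0.12) and Zfp318 fell by 3.88 on the log2 scale.

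Some genes were near 0 with Cu-Cys and clearly detected with Cadict. Grhl2, an epithelial transcription factor, had 0.0461, 0.0457 and 0.137 CPM with Cu-Cys and 43.3, 45.7 and 49.3 CPM with Cadict. Its scaled ratio of summed counts was 603 (95% exact counting interval 258 to 1861). Gml had 0 counts in every Cu-Cys and every Ctrl library and 5.52, 8.54 and 8.23 CPM with Cadict, at least 162-fold higher when 3 counts over the group are taken as the floor. Muc3, a membrane mucin, had 1 count over the Cu-Cys libraries and 312 over the Cadict libraries (scaled ratio 581, interval 104 to 23022). Tex19.1 had 4 and 506 (scaled ratio 236, 91.4 to 868), and Serpinb2, an inhibitor of urokinase, had 5 and 294 (scaled ratio 110, 46.4 to 340). Beside Grhl2, the 7 epithelial markers summed to 3.83 to 4.38 CPM with Cu-Cys and 23.8 to 25.9 CPM with Cadict, mainly from Cdh1 and Krt19, with Epcam, Krt18 and Cldn4 at or near 0. The part of these markers in the rise of Grhl2 was not tested.

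In the other direction, Bace1, the beta-secretase, had 5.17, 6.58 and 6.70 CPM with Cu-Cys and 4 counts over the Cadict libraries (scaled ratio 54.1, 95% exact counting interval 21 to 200). Zfp324, Pgap4 and Ankrd34a had 6, 7 and 8 counts over the Cadict libraries, with scaled ratios of 32.5, 23.8 and 21.9. Among the remaining large rises, Il11, a cytokine of the interleukin 6 family, went from 1.62, 1.23 and 1.37 to 90.1, 84.1 and 83.5 CPM (5.93 ± 0.10). Nppb, which encodes a natriuretic peptide, went from 27.5, 31.2 and 27.2 to 761, 962 and 711 CPM (4.82 ± 0.12). Efr3b (6.75 ± 0.15), the channel subunit Cnga3 (5.67 ± 0.20) and the nuclear factor Csrnp1 (4.61 ± 0.08) rose from means of 1.02, 0.382 and 7.99 CPM with Cu-Cys.

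Finally, the genes that gained and lost most of the library show how the counts were redistributed. Beside Hspa1b and Hmox1, Eef1a1, the elongation factor that delivers aminoacyl-tRNA, rose from 9190, 9115 and 8995 to 22016, 23587 and 20309 CPM (1.27 ± 0.06). The 5 genes whose share of counts fell most included the giant scaffold protein Ahnak, which fell from 2114, 2315 and 2531 to 1049, 915 and 1005 CPM (-1.23 ± 0.07). The others were Tubb5 (-0.92 ± 0.06), Tuba1b (-0.77 ± 0.07), Ptma (-0.10 ± 0.06) and Vim (-0.03 ± 0.06), and none of these 4 was called. Vim, the intermediate filament of mesenchymal cells, held 2155, 2050 and 2105 CPM with Cu-Cys and 2085, 2234 and 1861 CPM with Cadict, with overlapping groups and an adjusted p of 0.638.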

How the data were processed

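Messenger RNA of MC38 cells was sequenced in 9 libraries. Per gene and library the authors deposited 4 measures of 16509 genes: an unnormalized expected count as RSEM estimates it, FPKM, TPM, and a signal column in which that count was divided by a library's size factor. The submitters' processing notes name HISAT2 2.1.0, Bowtie2 2.3.4.3, RSEM 1.3.1 and the builds GRCh38.p13 and GRCm39, with no role given, and RSEM splits reads shared by similar genes. The labels name a column kit, oligo(dT) selection and DNA nanoballs, whereas the series text names TRIzol and a Novaseq instrument. Another 12 columns, the authors' group averages, were not used. Columns abbreviated CC were read as Cu-Cys and CCGE as Cadict, the latter an inference from its parts.

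The expected counts, rounded to whole numbers, went into edgeR 4.0.16 (R 4.3.3): filterByExpr, TMM scaling and a quasi-likelihood fit of all 9 libraries, with p-values adjusted over 11949 genes. Calls needed a 2-fold change and an adjusted p no higher than 0.001, the limits of the study's methods. The members, lists and motifs were chosen with earlier results of these data known, so lists carry no test. Named genes were the 15 largest rises and 15 largest falls at a mean of at least 10 CPM without overlap, up to 4 members of each list, the 10 largest gains and 5 largest losses in share of counts, a list of genes of interest, and up to 5 genes each way with at most 3 counts in every library of a group. Genes named outside this rule are marked. Some of the genes picked are not reported here. The procedure was also run on simulated data with 200 changed genes, as many up as down, to count those recovered at the adjusted p limit. That simulation held no shift in composition like the one between these groups, so it says nothing of the dependence of direction on scaling. Effective lengths came from counts, FPKM and library totals, exon numbers from GENCODE M21 and promoters from a RefSeq table on GRCm38.p6, matched by symbol or gene ID (11650 and 9550 of the 11949 genes). Alternatives used DESeq2 1.42.0, limma 3.58.1 on log2 of FPKM or TPM plus 1, other scalings, filters and thresholds, a replicate block, and leaving out each library.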

Additional observations from a re-analysis of the deposited data

How the results depend on the processing

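The count of called genes was 4932 to 5058 when each of the 9 libraries was left out in turn, with 2168 to 2240 higher and 2741 to 2823 lower. It stayed within 1.5 times the reported value with the size factors of DESeq2 (5058), DESeq2's Wald test (4955), only the 6 libraries (4985), at least 10 counts in every library (4284), no filter beyond 1 count (5263) and a looser adjusted p limit of 0.05 (5296). The numbers of higher and lower genes moved further with library totals (688 and 5705), with limma on FPKM (472 and 4499) and with limma on TPM (359 and 5785), and without a limit on the fold change 8708 genes were called, 4144 higher and 4564 lower. Same-numbered libraries did not deviate together (correlations of -0.0974, -0.145 and -0.0374 over 8551 genes), so the numbers were not taken as pairs, and a fit with the replicate number as a block called 5019 genes, 2214 higher and 2805 lower.

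Of the named genes, these changed sign. With library totals, FPKM and TPM respectively, the log2 fold change was -0.38, -0.38 and -0.65 for Atf4, -0.29, -0.29 and -0.56 for Fdx1, -0.083, -0.084 and -0.36 for Flna, -0.78, -0.77 and -1.04 for G6pdx, -0.68, -0.62 and -0.89 for Hk2 and -0.020, -0.029 and -0.30 for Hspa5. With TPM it was also -0.17 for Dlat and -0.12 for Mtf1. For Vim it was 0.062 with the size factors of DESeq2, 0.056 in DESeq2's Wald test and -0.095 to 0.034 when libraries were left out. The call was lost for 23 of the 143 called genes picked for naming with library totals, 24 with FPKM and 35 with TPM, while 5, 6 and 8 others were then called, all lower. Mtf1 also lost it without Cadict replicate 3 (0.98), with at least 10 counts in every library (0.99, with another 17 of the genes not tested) and with no filter beyond 1 count (0.94). The cause was not tested. At these depths a gene at 0 could hold up to 0.261 CPM in a Cadict library, so genes under that level cannot be told from absent.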
